A study of Mus musculus with 5 samples.

Results

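The proteasome genes are described here in primary mouse astrocytes given amyloid-β peptide (Aβ), with or without DFMO (difluoromethylornithine, an irreversible inhibitor of ornithine decarboxylase). Members were all genes of the authors' table whose symbol is Psma, Psmb, Psmc, Psmd, Psme, Psmf or Psmg followed by a number, which gave 46 of 18783 genes. They fall into 7 alpha-ring genes (Psma), 7 constitutive and 3 inducible beta-ring genes (Psmb), 6 ATPase genes (Psmc), 14 further genes of the cap and its chaperones (Psmd), 4 activator genes (Psme), 1 inhibitor gene (Psmf1) and 4 assembly chaperone genes (Psmg). The choice of members used no measured value.

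All cultures came from C57BL/6 pups at P0 to P1, were kept in medium with serum, and were harvested on day 12 in vitro. The Aβ+DFMO group, 1 library, had 1 µM Aβ with 50 µM DFMO for 5 days, and the Aβ group, 2 libraries, had 1 µM Aβ alone for the same 5 days. The Control group, 2 libraries, was untreated. Poly-A RNA was sequenced as paired reads, and values per gene were used as 1 mean per group on the authors' normalized scale, so no spread between libraries can be printed. Whether libraries of 1 group are separate cultures is not in the labels, so the p-values measure only a spread between these libraries, which may be technical. The Aβ+DFMO library had 4825677 reads, while the other 4 libraries had between 46886111 and 105544237. With 1 library in that group, its p-values assume that it varies as the other groups do.

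The proteasome is the protease that degrades ubiquitin-tagged proteins in the cytosol and nucleus. Its 20S core is a barrel of stacked rings. The outer alpha rings gate the entrance, and the inner beta rings hold the proteolytic sites. The 19S cap binds ubiquitin chains, removes them, and unfolds and feeds the substrate through a ring of ATPases. Interferon replaces the catalytic beta subunits by inducible ones, which gives the immunoproteasome, known for making peptides for class I presentation. In brain tissue the inducible subunits are known from activated microglia and reactive astrocytes. Ornithine decarboxylase, the target of DFMO, is itself a proteasome substrate that is degraded without ubiquitin, guided by antizyme.

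All 46 genes had a mean above 0 in all 3 groups, but so had all 18783 genes, so this does not set the members apart. Group means in Aβ+DFMO ran from 23.1 for Psmb9 to 6671 for Psmd2. In Aβ they ran from 61.1 to 7576, and in Control from 60.0 to 7492, for the same genes. Of the 46 genes, 31 encode constitutive subunits of the assembled 26S particle. Their summed level was 85502 in Aβ+DFMO, 87496 in Aβ and 85649 in Control. The alpha ring summed to 16615 in Aβ+DFMO, 15519 in Aβ and 15204 in Control. The constitutive beta ring summed to 14788 in Aβ+DFMO, 15843 in Aβ and 15310 in Control. For the 3 immunoproteasome genes the sum was 232 in Aβ+DFMO, 515 in Aβ and 525 in Control. The immunoproteasome was thus the subcomplex whose Aβ+DFMO sum lay farthest, in proportion, from the other groups, and the 2 groups with several libraries lay close together for each of these sums.

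Levels can be set between genes only per length. Divided by the length in kilobases of the principal transcript, the constitutive core and cap genes in Aβ lay mostly close together, with medians over genes of 2165 for the alpha ring, 2210 for the constitutive beta ring, 1533 for the ATPases and 1489 for the Psmd genes. Within the alpha ring, Psma6 was highest at 2638 per kilobase and Psma3 lowest at 512 in Aβ. In the constitutive beta ring, Psmb6 was highest at 2484 per kilobase and Psmb5 lowest at 1453 in Aβ. The ATPase genes spanned only 1424 per kilobase for Psmc6 to 1958 for Psmc4 in Aβ. Among Psmd genes, Psmd8, a small subunit of the lid, was highest at 2806 per kilobase, and Psmd9, an assembly chaperone of the base, was lowest at 300 in Aβ. The inducible genes stood at the bottom of the order, with 188 per kilobase for Psmb10, 128 for Psmb8 and 45.2 for Psmb9 in Aβ, together with the activator gene Psme2 at 159. Each length was the median over a gene's annotated principal transcripts, or over its other annotated transcripts where it had none. A gene with a long untranslated end, whichever its true transcript in these cells, can thus appear low on this scale.

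**Figure D1:**
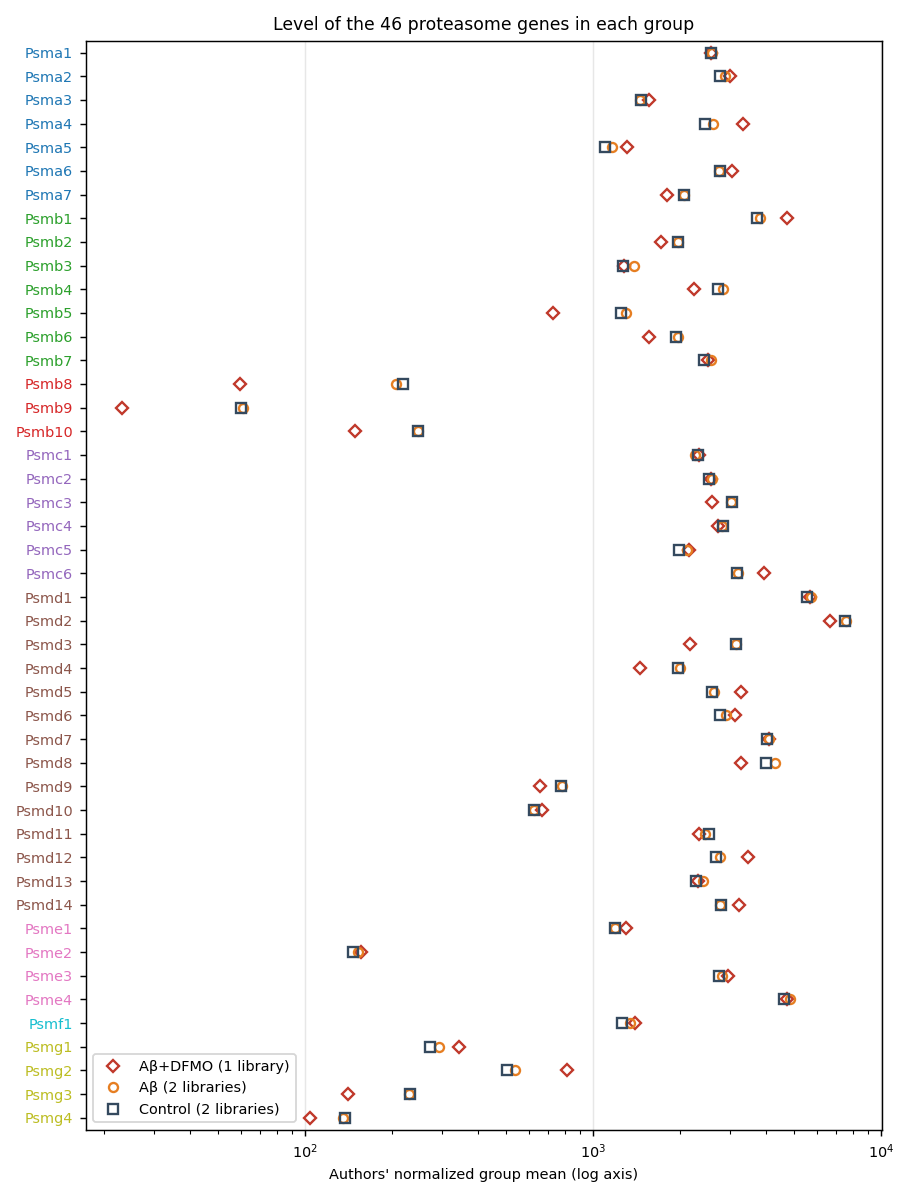
The authors' normalized group mean (log axis) of each of the 46 proteasome genes, with Aβ+DFMO as diamonds, Aβ as circles and Control as squares, and gene names coloured by subcomplex. The Aβ and Control marks nearly coincide for most genes. The diamonds of Psmb8, Psmb9, Psmb5, Psmb10 and Psmg3 lie farthest to the left of both, and those of several other genes lie to the left by less.

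Comparing Aβ with Control asks whether 5 days of the peptide altered the genes of the proteasome. In the authors' deposited table, 0 of the 46 genes passed an adjusted p under 0.05 (DESeq2 with Benjamini-Hochberg adjustment), where 0.287% of all genes passed. Without adjustment, 0 of the 46 had a p under 0.05, against 324 of all genes (1.72%), and DESeq2 was the only test available. The median log2 ratio of Aβ over Control was 0.03 over the 46 genes and 0.0024 over all genes, with 33 genes above 0 and 13 below. The smallest unadjusted p in the authors' deposited table was 0.285, for the beta-ring gene Psmb3, at a log2 ratio of 0.12. An error implied by each p, the size of the log2 ratio divided by the normal deviate of its p, had a median of 0.0980 over the 46 genes. The resulting 95% intervals of 39 genes lay wholly between a log2 ratio of −0.4 and 0.4. The other 7, the 3 immunoproteasome genes, Psme2, Psmg1, Psmg3 and Psmg4, had intervals that reached past those bounds.

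By role, the extremes in Aβ over Control were close to 0 throughout. In the alpha ring, the log2 ratio in the authors' deposited table was highest for Psma5 at 0.09 and lowest for Psma3 at −0.01. The constitutive beta ring ran from 0.12 for Psmb3 to −0.00028 for Psmb2. The catalytic genes Psmb5, Psmb6 and Psmb7 had log2 ratios of 0.06, 0.03 and 0.08. The ATPase genes ran from 0.09 for Psmc5 to −0.03 for Psmc1, and the Psmd genes from 0.10 for Psmd8 to −0.06 for Psmd11. The inducible genes Psmb8, Psmb9 and Psmb10 had log2 ratios of −0.07, 0.03 and −0.0029. Activators ran from 0.00054 for Psme1 to 0.07 for Psme4, the inhibitor Psmf1 stood at 0.09, and the assembly chaperones ran from −0.02 for Psmg4 to 0.11 for Psmg1. No subcomplex had a median log2 ratio of Aβ over Control outside −0.0029 to 0.09.

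Comparing Aβ+DFMO with Aβ asks what the inhibitor added to the peptide. In the authors' deposited table, 5 of the 46 genes fell at an adjusted p under 0.05 (DESeq2), where 5.18% of all genes were called lower. None of the 46 was called higher, where 4.00% of all genes were, and calls in either direction made up 9.18% of all genes. Among the 11780 genes whose Aβ mean reached 200, a range that holds 43 of the 46, 8.17% were called lower and 6.15% higher. The genes that fell were Psmb5 and Psmb8, the constitutive and inducible forms of the chymotrypsin-like subunit, and Psmd3, Psmd4 and Psmd8 of the 19S cap. At an unadjusted p under 0.05 there were 13 genes, 6 with a higher and 7 with a lower mean in Aβ+DFMO, where 20.9% of all genes had such a p. The median log2 ratio of Aβ+DFMO over Aβ was −0.01 over the 46 genes and 0.0080 over all genes, with 21 above 0 and 25 below, so members lay on both sides of 0 within most subcomplexes. These ratios also moved with the GC content of the transcripts, as described further on, and once the trend of all genes with GC was taken out, 0 of the 46 passed, where 1.59% of all genes did.

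Promoters are shown for the genes called as deposited in Aβ+DFMO against Aβ that have an entry in the RefSeq table (build GRCm38.p6). Each runs from 250 bases before the gene start to 50 after it. None of these genes passed once the GC trend was taken out. Psmd3 has no entry. Both strands were searched for 2 motifs, the antioxidant response element core TGACNNNGC, bound by the NRF factors that control proteasome genes, and the interferon element core GAAANNGAAA, and a match is set in capitals.
Psmb5: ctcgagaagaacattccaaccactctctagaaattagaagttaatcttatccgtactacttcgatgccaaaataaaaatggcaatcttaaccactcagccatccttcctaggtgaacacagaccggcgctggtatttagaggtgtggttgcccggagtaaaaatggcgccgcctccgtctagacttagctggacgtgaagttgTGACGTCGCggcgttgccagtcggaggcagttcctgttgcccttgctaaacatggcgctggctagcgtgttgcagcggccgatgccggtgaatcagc
Psmb8: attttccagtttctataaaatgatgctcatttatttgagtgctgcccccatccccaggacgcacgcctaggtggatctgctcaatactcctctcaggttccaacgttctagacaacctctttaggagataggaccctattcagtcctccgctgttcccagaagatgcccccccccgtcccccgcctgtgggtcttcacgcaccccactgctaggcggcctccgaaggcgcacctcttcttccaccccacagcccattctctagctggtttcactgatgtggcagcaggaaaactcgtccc
Psmd4: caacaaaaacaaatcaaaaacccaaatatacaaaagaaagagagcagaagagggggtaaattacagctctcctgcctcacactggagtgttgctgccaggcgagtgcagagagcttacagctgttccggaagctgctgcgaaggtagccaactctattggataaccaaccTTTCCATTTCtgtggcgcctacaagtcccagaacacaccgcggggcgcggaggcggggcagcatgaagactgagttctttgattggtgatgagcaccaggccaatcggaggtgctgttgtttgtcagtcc
Psmd8: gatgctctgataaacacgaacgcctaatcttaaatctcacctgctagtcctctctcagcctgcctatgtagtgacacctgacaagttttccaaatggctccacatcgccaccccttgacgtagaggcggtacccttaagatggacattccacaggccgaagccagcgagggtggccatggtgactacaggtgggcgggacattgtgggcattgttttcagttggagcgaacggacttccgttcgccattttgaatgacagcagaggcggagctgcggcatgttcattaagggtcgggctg
The Psmb5 window is chr14:54617946-54618245 on the minus strand, and it holds the antioxidant core TGACGTCGC starting 47 bases before the gene start. The Psmb8 window is chr17:34197945-34198244 on the plus strand, and the Psmd8 window is chr7:29180624-29180923 on the minus strand. Neither holds these letters. The Psmd4 window is chr3:95042565-95042864 on the minus strand, and the interferon core, read on the opposite strand as TTTCCATTTC, starts 80 bases before the gene start. Of the 46 genes, 39 have an entry, with 42 promoters among them. The antioxidant core is in 6 of the 42 promoters (of Psmb5, Psmb6, Psmc6, Psmd12, Psmd9 and Psme4), against 12.4% of all 32851 promoters in the table. The interferon core is in 5 of the 42 (of Psmb3, Psmd4, Psmd9, Psme1 and Psmg4), against 3.44% of all promoters, and Psmd9 is listed for both cores. A match describes letters in a window and is no evidence of binding.

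In the alpha ring, whose subunits form the gate and the docking surface for the cap, 0 of 7 genes passed in Aβ+DFMO against Aβ. Psma4 had means of 3335 in Aβ+DFMO, 2607 in Aβ and 2461 in Control, the highest log2 ratio of the ring at 0.36 (adjusted p = 0.0608 in the authors' deposited table). Psma7 had 1803 in Aβ+DFMO, 2069 in Aβ and 2066 in Control, the lowest at −0.20 (adjusted p = 0.529 in the authors' deposited table). In all, 5 of the 7 genes lay above 0, and the ring's median log2 ratio was 0.10. After removal of the GC trend, 3 of the 7 lay above 0 and the median turned to −0.11.

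In the constitutive beta ring, 1 of 7 genes passed. Psmb5, the chymotrypsin-like catalytic subunit, had means of 728 in Aβ+DFMO, 1306 in Aβ and 1254 in Control. It fell by 0.84 on the log2 scale (implied standard error 0.201, adjusted p = 0.00120 in the authors' deposited table), and it was the lowest of the ring. About 97.7 reads lay behind the Aβ+DFMO value, where the Aβ level would have given 175. This leaves Psmb5 at 55.7% of its Aβ level, with a 95% Poisson interval of 45.4% to 68.2% that covers counting error in this library only. After removal of the GC trend, the log2 ratio of Psmb5 was −0.47 (adjusted p = 0.357, computed from the authors' deposited table).

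The other catalytic subunits did not pass. Psmb6, the caspase-like subunit, had means of 1572 in Aβ+DFMO, 1982 in Aβ and 1944 in Control, a log2 ratio of −0.33 (adjusted p = 0.174 in the authors' deposited table). For Psmb7, the trypsin-like subunit, the means were 2504 in Aβ+DFMO, 2564 in Aβ and 2425 in Control, a log2 ratio of −0.03 (adjusted p = 0.944 in the authors' deposited table). Of the non-catalytic beta genes, Psmb1 was the highest, with 4732 in Aβ+DFMO, 3805 in Aβ and 3716 in Control (log2 ratio 0.31, adjusted p = 0.0851 in the authors' deposited table). In all, 6 of the 7 constitutive beta genes lay below 0, and their median log2 ratio was −0.20, or −0.09 after removal of the GC trend.

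All 3 immunoproteasome genes had their lowest mean in Aβ+DFMO, and 1 of the 3 passed. Psmb8, which takes the place of Psmb5, had means of 59.6 in Aβ+DFMO, 208 in Aβ and 219 in Control. It fell by 1.80 on the log2 scale (implied standard error 0.587, adjusted p = 0.0298 in the authors' deposited table), the lowest ratio among the 46 genes. Only about 8 reads lay behind its Aβ+DFMO value, where the Aβ level would have given 27.9, so it stood at 28.7% of its Aβ level (95% Poisson interval 12.4% to 56.5%). Psmb9, which takes the place of Psmb6, had 23.1 in Aβ+DFMO, 61.1 in Aβ and 60.0 in Control, a log2 ratio of −1.40 (adjusted p = 0.447 in the authors' deposited table). It rested on an estimated 3.10 reads in Aβ+DFMO, and its interval of 7.55% to 107% of the Aβ level includes equality with Aβ. Psmb10, which takes the place of Psmb7, had 149 in Aβ+DFMO, 246 in Aβ and 247 in Control, a log2 ratio of −0.73 (adjusted p = 0.317 in the authors' deposited table). Its roughly 20 reads put it at 60.5% of the Aβ level, with an interval of 36.9% to 93.4%. After removal of the GC trend, the log2 ratios were −1.49 for Psmb8, −1.12 for Psmb9 and −0.36 for Psmb10, and the adjusted p of Psmb8 was 0.276, computed from the authors' deposited table.

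**Figure D2:**
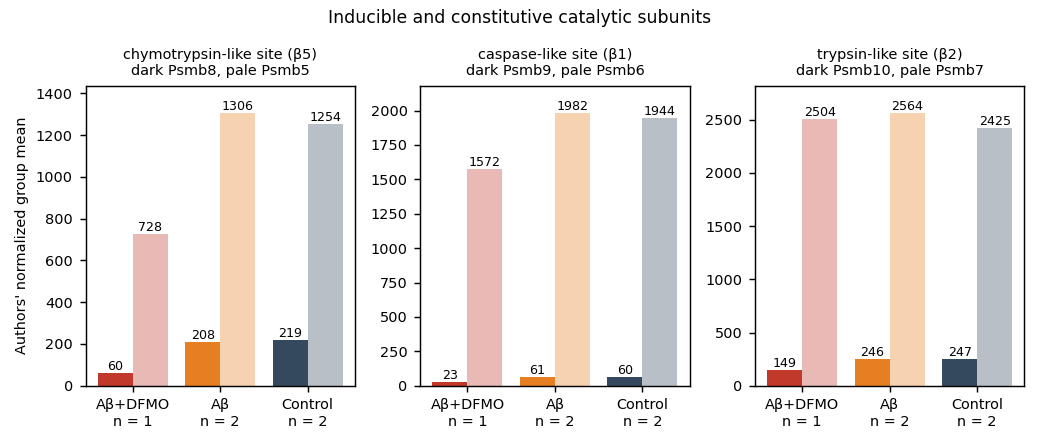
Authors' normalized group means (linear axis from 0) of each inducible gene (dark bars) beside the constitutive gene whose place it takes (pale bars), for the chymotrypsin-like, caspase-like and trypsin-like sites. In Aβ+DFMO, Psmb8 and Psmb5 both stand below their Aβ and Control bars, while the Psmb7 bar stands between the other groups' bars. No error bars are drawn, because values were used only as group means.

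Set as a share of the pair at each site, the inducible form was the minor one in every group. Psmb8 made up 7.57% of the summed level of Psmb8 and Psmb5 in Aβ+DFMO (95% Clopper-Pearson interval 3.31% to 14.3%), 13.7% in Aβ and 14.8% in Control. Psmb9 made up 1.45% of the Psmb9 and Psmb6 level in Aβ+DFMO (0.290% to 4.04%), 2.99% in Aβ and 2.99% in Control. For Psmb10 and Psmb7 the share was 5.62% in Aβ+DFMO (3.47% to 8.54%), 8.77% in Aβ and 9.24% in Control. Per kilobase of transcript the Psmb8 share was 4.33% in Aβ+DFMO, 8.08% in Aβ and 8.78% in Control. The intervals cover counting error of the Aβ+DFMO library only, and the shares were not tested between groups. For Psmb8 and Psmb9 the Aβ share lay within the Aβ+DFMO interval, and for Psmb10 it lay above the interval's upper bound. The Control share lay within the interval for Psmb9, and above its upper bound for Psmb8 and Psmb10. After removal of the GC trend the Aβ+DFMO shares were 7.29% for Psmb8, 1.42% for Psmb9 and 7.38% for Psmb10, without intervals.

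The cultures also hold other cells, and their markers moved in the same libraries. In bulk RNA, fewer cells of a type and less RNA per cell cannot be told apart. All 14 microglia and macrophage markers were measured and, as for all genes, none was at 0. Their summed level was 35291 in Aβ+DFMO, 51525 in Aβ and 52330 in Control. Lyz2, the largest of the 14, had 23385.5 in Aβ+DFMO, 33224.5 in Aβ and 25843.6 in Control. The list's median log2 ratio of Aβ over Control was −0.49. In the authors' deposited table, 5 of these 14 fell and 0 rose in Aβ+DFMO against Aβ at an adjusted p under 0.05 (DESeq2). In Aβ against Control, 7 fell and 1 rose. Over all genes, 5.18% were called lower and 4.00% higher in Aβ+DFMO against Aβ. In Aβ against Control, 0.287% of all genes were called in either direction. The astrocyte markers, 10 of 10 measured, summed to 146536 in Aβ+DFMO, 185843 in Aβ and 186799 in Control, and 4 fell in Aβ+DFMO against Aβ. The oligodendrocyte lineage markers, also 10 of 10, summed to 25458 in Aβ+DFMO, 46413 in Aβ and 47032 in Control, with 8 lower in Aβ+DFMO against Aβ. Neuronal markers, 5 of 6 measured, summed to 22648 in Aβ+DFMO, 19228 in Aβ and 19713 in Control, with 1 higher (Stmn2) and 1 lower (Tubb3) in Aβ+DFMO against Aβ. Most of that sum was Map2 and Stmn2, with 11536 and 9830 in Aβ+DFMO and 10612 and 6639 in Aβ. Snap25 and Syt1 rested on about 4 and 25 reads in Aβ+DFMO. In this list, 3 log2 ratios of Aβ+DFMO over Aβ lay above 0 and 2 below. Fibroblast and mural markers, 7 of 7, summed to 95858 in Aβ+DFMO, 82179 in Aβ and 79755 in Control, with 2 higher (Acta2 and Myh11) in Aβ+DFMO against Aβ. Most of that sum was Acta2, with 81013 in Aβ+DFMO, 66644 in Aβ and 65705.5 in Control. The median log2 ratio of Aβ+DFMO over Aβ in this list was −0.12, with 3 genes above 0 and 4 below. It was 0.28 after removal of the GC trend. The endothelial list, 3 of 5 measured, summed to 134 in Aβ+DFMO, 204 in Aβ and 183 in Control, with 0 calls. After removal of the GC trend, 1.59% of all genes were called in Aβ+DFMO against Aβ. The markers then called were 3 of microglia and macrophages, 4 of astrocytes and 4 of the oligodendrocyte lineage. A further 1 of neurons, 2 of fibroblasts and mural cells, and 0 of endothelium were called. They were not all genes called before. Among astrocyte markers Gfap dropped out and Slc1a3 came in, and among fibroblast and mural markers Acta2 dropped out and Col1a2 came in. The part of these markers in the immunoproteasome values was not tested.

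Among the 6 ATPases, the ring that unfolds substrates, 0 passed in Aβ+DFMO against Aβ and the median log2 ratio was 0.0072. Psmc6 had means of 3935 in Aβ+DFMO, 3181 in Aβ and 3177 in Control, the highest log2 ratio at 0.31 (adjusted p = 0.0990 in the authors' deposited table). Psmc3 had 2593 in Aβ+DFMO, 3020 in Aβ and 3034 in Control, the lowest at −0.22 (adjusted p = 0.382 in the authors' deposited table). Psmc6 has the lowest GC content of the 46 transcripts, 37.0%, and its log2 ratio was −0.08 after removal of the GC trend.

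Of the 14 Psmd genes, 3 fell in Aβ+DFMO against Aβ and 0 rose. Psmd3, a scaffold subunit of the lid, had means of 2176 in Aβ+DFMO, 3149 in Aβ and 3153 in Control. It fell by 0.53 on the log2 scale (implied standard error 0.142, adjusted p = 0.00482 in the authors' deposited table). Psmd3 also has the highest GC content of the 46 transcripts, 58.3%, and after removal of the GC trend its log2 ratio was −0.08 (adjusted p = 0.979).

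Psmd4, the ubiquitin receptor Rpn10, had means of 1453 in Aβ+DFMO, 2013 in Aβ and 1970 in Control. It fell by 0.47 on the log2 scale (implied standard error 0.162, adjusted p = 0.0432 in the authors' deposited table), and after removal of the GC trend the log2 ratio was −0.19 (adjusted p = 0.892). The lid subunit Psmd8 had 3264 in Aβ+DFMO, 4282 in Aβ and 3997 in Control. It fell by 0.39 on the log2 scale (implied standard error 0.135, adjusted p = 0.0426 in the authors' deposited table), or to a log2 ratio of −0.20 (adjusted p = 0.792) after removal of the GC trend. The lid subunit Psmd12 was the highest of the 14, with 3450 in Aβ+DFMO, 2760 in Aβ and 2685 in Control (log2 ratio 0.32, adjusted p = 0.0995 in the authors' deposited table). The median log2 ratio of the 14 genes was −0.04, with 6 genes above 0 and 8 below.

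**Figure D3:**
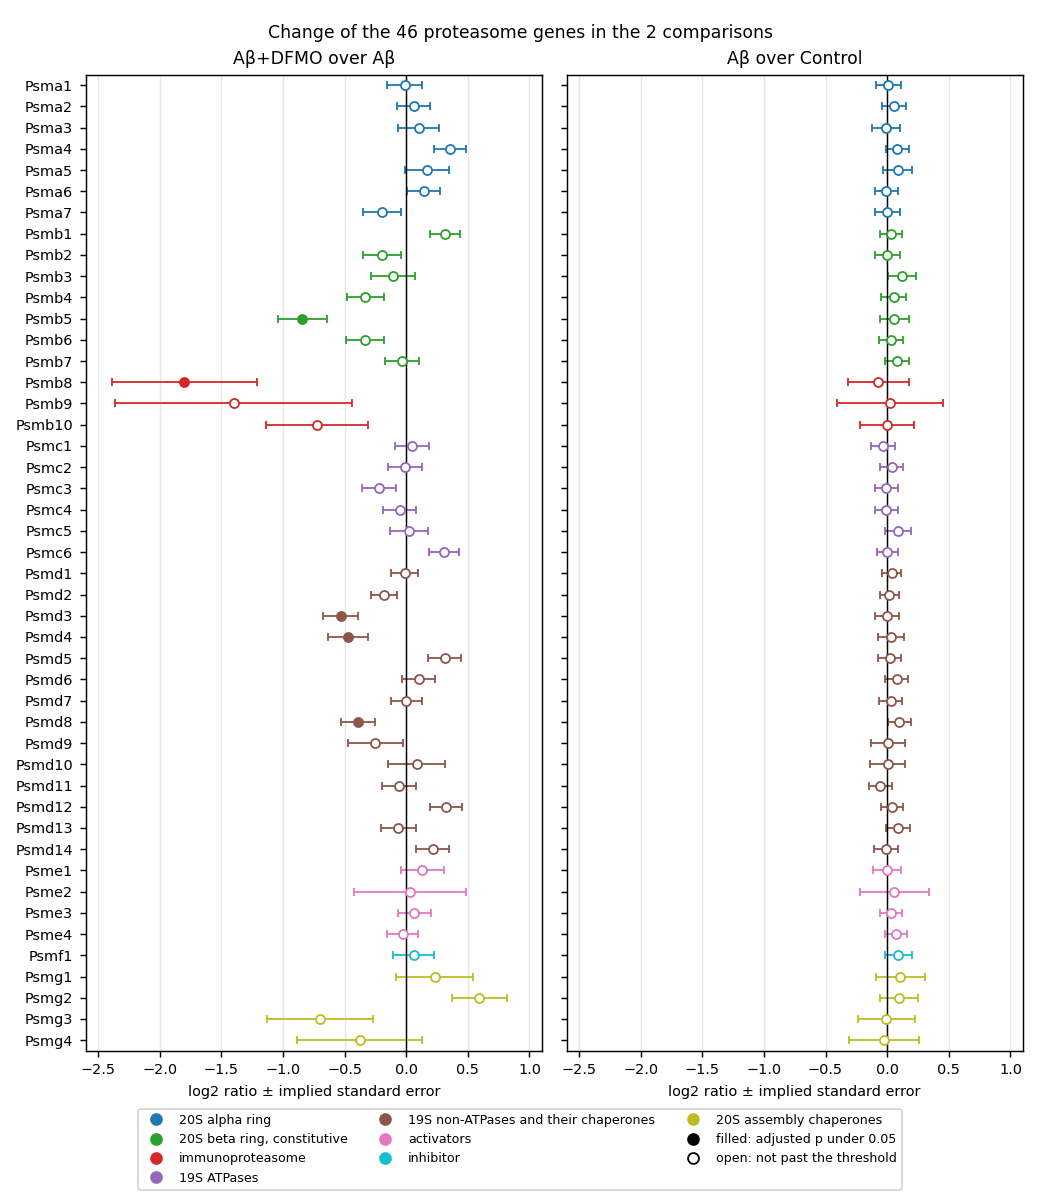
The log2 ratio of each of the 46 genes in Aβ+DFMO over Aβ (left) and Aβ over Control (right), with bars of 1 implied standard error and colours for the subcomplexes. Filled marks passed an adjusted p under 0.05. The 5 filled marks are all on the left, for Psmb5, Psmb8, Psmd3, Psmd4 and Psmd8, and the error bar of Psmb9 is the widest in both panels.

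The activators, which open the gate in place of the 19S cap, gave 0 calls of 4 genes. Psme1 and Psme2 are the interferon-responsive PA28 alpha and beta subunits. Unlike the inducible catalytic genes, neither had a lower mean in Aβ+DFMO than in Aβ. Psme1 had means of 1304 in Aβ+DFMO, 1190 in Aβ and 1190 in Control (log2 ratio of Aβ+DFMO over Aβ 0.13, adjusted p = 0.760 in the authors' deposited table). After removal of the GC trend the log2 ratio of Psme1 was 0.41 (adjusted p = 0.345, computed from the authors' deposited table). Psme2 had 156 in Aβ+DFMO, 153 in Aβ and 147 in Control (log2 ratio 0.03, adjusted p = 0.987 in the authors' deposited table). It rested on about 21 reads in Aβ+DFMO. Its 95% Poisson interval of 63.3% to 156% of the Aβ level overlaps those of Psmb9 and Psmb10, but not that of Psmb8. Psme2 is uncertain also because the near copy Psme2b was listed with 492 in Aβ+DFMO, 607 in Aβ and 624 in Control. The counting could split reads between Psme2 and Psme2b. Psme3, the nuclear PA28 gamma, had 2944 in Aβ+DFMO, 2811 in Aβ and 2753 in Control (log2 ratio 0.07, adjusted p = 0.860 in the authors' deposited table). Psme4, which encodes PA200, had 4732 in Aβ+DFMO, 4832 in Aβ and 4600 in Control (log2 ratio −0.03, adjusted p = 0.943 in the authors' deposited table). Psmf1, the inhibitor PI31, had 1401 in Aβ+DFMO, 1344 in Aβ and 1264 in Control (log2 ratio 0.06, adjusted p = 0.911 in the authors' deposited table).

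The assembly chaperones, which pair alpha-ring subunits and prevent wrong rings, lay on both sides of 0 and none of the 4 passed. Psmg2 had means of 812 in Aβ+DFMO, 538 in Aβ and 503 in Control, the highest log2 ratio among the 46 genes at 0.59 (implied standard error 0.225, adjusted p = 0.0747 in the authors' deposited table). Psmg1, its partner in a dimer, had 343 in Aβ+DFMO, 292 in Aβ and 271 in Control (log2 ratio 0.23, adjusted p = 0.772 in the authors' deposited table). The partners Psmg3 and Psmg4 had lower means in Aβ+DFMO. Psmg3 had 142 in Aβ+DFMO, 230 in Aβ and 231 in Control (log2 ratio −0.70, adjusted p = 0.368 in the authors' deposited table). Psmg4 had 104 in Aβ+DFMO, 136 in Aβ and 138 in Control (log2 ratio −0.38, adjusted p = 0.772 in the authors' deposited table). Psmg3 and Psmg4 rested on about 19 and 14 reads in Aβ+DFMO.

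Across the 46 genes, the log2 ratio of Aβ+DFMO over Aβ ran with the GC content of the principal transcript. Over the 46 genes, rho (Spearman) was −0.78 and r (Pearson) −0.64. The genes share the same libraries and group means, and rho stood at −0.74 over the 43 genes left without the immunoproteasome. The same relation over 11660 genes whose Aβ mean reached 200 gave a rho of −0.72, so it is not particular to the proteasome. The running median of those genes was 0.38 at 37% GC and −0.43 at 58% GC. For Aβ over Control, rho over the 46 genes was −0.10.

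Ordered by GC content, the 23 genes from 37.0% to 51.0% had 16 log2 ratios above 0 and 7 below, a median of 0.08 and 0 calls. The 23 genes from 51.3% to 58.3% had 5 above 0 and 18 below, a median of −0.25, and all 5 calls. After the running median was taken out, rho over the 46 genes was −0.14, and the smallest adjusted p was 0.276, that of Psmb8. At an unadjusted p under 0.05 there were then 6 of the 46 genes, where 8.96% of all genes had one. The sign of the log2 ratio turned for 10 of the 46 genes. The running median was taken from the Aβ+DFMO library itself, so a response of the cells that went with GC content and a property of that library cannot be told apart.

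**Figure D4:**
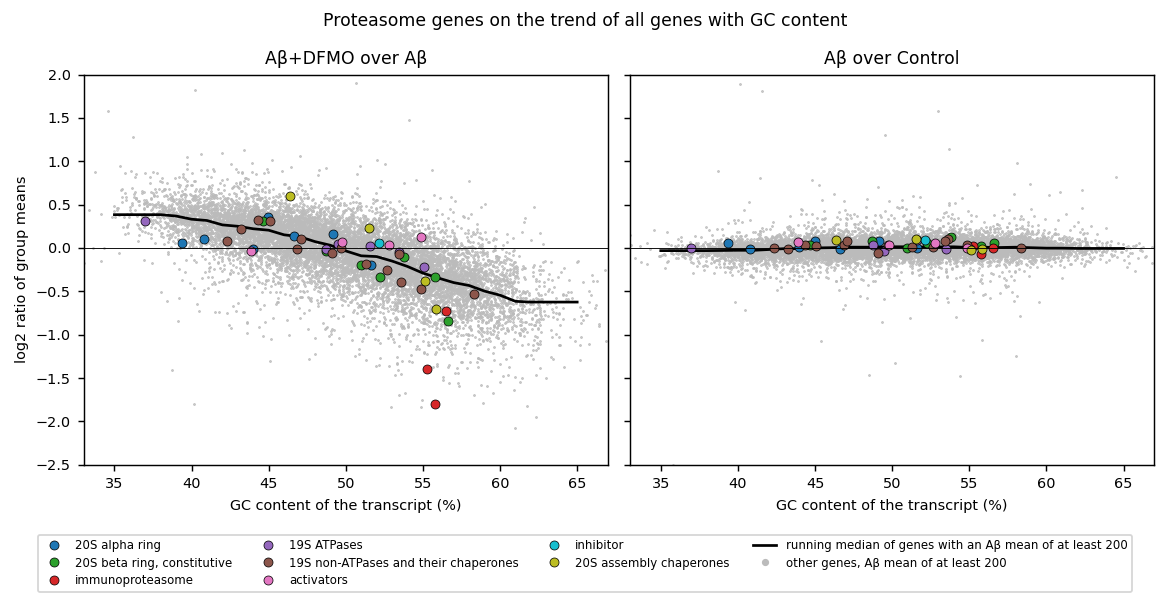
The log2 ratio of group means against GC content of the transcript for Aβ+DFMO over Aβ (left) and Aβ over Control (right). Grey points are genes whose Aβ mean reached 200, coloured points the proteasome genes by subcomplex, and the black line is the running median. On the left, most coloured points follow the line down, and Psmb8 and Psmb9 lie far below it. On the right, the line is flat.

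Aβ+DFMO was not tested against Control, and only the means can be set side by side. The median log2 ratio of Aβ+DFMO over Control was 0.03 over the 46 genes. The 5 genes called in Aβ+DFMO against Aβ all had a lower mean in Aβ+DFMO than in Control. Both tested comparisons share the Aβ libraries.

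The authors' deposited pathway table holds a proteasome set of 43 genes. It gave Aβ over Control a ratio of 1.02 and an adjusted p of 0.0749 in the authors' deposited table, where 17.8% of 242 sets passed 0.05. For Aβ+DFMO over Aβ the authors' deposited table gave a ratio of 0.984 and an adjusted p of 1.34e-12, where 70.7% of the sets passed. How these p-values were made is not stated, and the ratio of 0.984 is close to 1.

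Genes that act with the proteasome were grouped into 5 lists, and none of their measured genes passed in Aβ against Control in the authors' deposited table. The smallest unadjusted p over the lists was 0.174, for Uba1 at a log2 ratio of 0.10, followed within its list by Ubqln2 at 0.11 (p = 0.190 in the authors' deposited table). In the list of partners the closest were Akirin2, a nuclear import factor of the proteasome, at 0.06 (p = 0.494 in the authors' deposited table) and Pomp, a core maturation factor, at 0.05 (p = 0.638). Among regulators they were Nfe2l2 at 0.06 (p = 0.405 in the authors' deposited table) and Sel1l at 0.06 (p = 0.494). For class I presentation they were Calr at 0.06 (p = 0.380 in the authors' deposited table) and Tapbp at −0.07 (p = 0.412). On the ornithine decarboxylase route they were Odc1 at 0.09 (p = 0.274 in the authors' deposited table) and Azin2 at −0.13 (p = 0.334).

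In Aβ+DFMO against Aβ, each list held at least 1 call, where 9.18% of all genes were called, 4.00% higher and 5.18% lower. Among genes whose Aβ mean reached 200, 8.17% were called lower and 6.15% higher. That range holds all measured genes of the lists except Nlrc5. After removal of the GC trend, 1.59% of all genes were called. Of the partners, 9 of 13 were measured and 1 rose. Usp14, a deubiquitinase of the cap, had 4559 in Aβ+DFMO, 3609 in Aβ and 3576 in Control (log2 ratio 0.34, adjusted p = 0.0465 in the authors' deposited table), and −0.03 after removal of the GC trend. The median log2 ratio of the partners was 0.29, or −0.03 after removal of the GC trend. Of the regulators, 8 of 10 were measured and 1 fell. Nfe2l1, which encodes the factor that raises proteasome genes when the protease is short, had 7549 in Aβ+DFMO, 10500 in Aβ and 10362 in Control (log2 ratio −0.48, adjusted p = 0.000196 in the authors' deposited table). After removal of the GC trend it stood at −0.25 (adjusted p = 0.298).

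Ubiquitin and its shuttles, 11 of 12 measured, gave 1 gene that rose and 3 that fell in Aβ+DFMO against Aβ, with a median log2 ratio of −0.06. The polyubiquitin gene Ubb fell by 0.41 on the log2 scale (adjusted p = 0.000695 in the authors' deposited table). The activating enzyme Uba1 fell by 0.32 (adjusted p = 0.0166 in the authors' deposited table), while Uba6, the alternative activating enzyme, had a log2 ratio of 0.57 (adjusted p = 0.0147). Sqstm1, the p62 receptor that carries ubiquitinated cargo to autophagy, fell by 0.45 (adjusted p = 0.00200 in the authors' deposited table). None of the 11 passed after removal of the GC trend.

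Class I presentation, 14 of 14 measured, gave 1 gene that rose and 2 that fell, with a median log2 ratio of −0.11, which turned to 0.05 after removal of the GC trend. B2m, the light chain, had a log2 ratio of 0.36 (adjusted p = 0.00611 in the authors' deposited table), while the heavy chains H2-K1 and H2-D1 fell by 0.46 and 0.43 (adjusted p = 0.0249 and 0.0383). None of the 14 passed after removal of the GC trend.

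On the ornithine decarboxylase route, 5 of 6 listed genes were measured, and 2 rose and 2 fell in Aβ+DFMO against Aβ. Odc1, which encodes the enzyme that DFMO inhibits, had 12235 in Aβ+DFMO, 9293 in Aβ and 8744 in Control, a log2 ratio of 0.40 (adjusted p = 0.00415 in the authors' deposited table). Azin1, the antizyme inhibitor that spares ornithine decarboxylase from the proteasome, had a log2 ratio of 0.61 (adjusted p = 2.69e-07 in the authors' deposited table). The antizymes Oaz1 and Oaz2, which carry the enzyme to the proteasome, fell by 0.56 and 0.47 (adjusted p = 0.00269 and 0.00878 in the authors' deposited table). After removal of the GC trend, Odc1 alone passed on this route, at a log2 ratio of 0.54 (adjusted p = 6.7e-05). Among the 5 lists together it was the one gene that passed both with and without the trend.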

How the data were processed

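The members, gene lists and tests were chosen with earlier results of these data known. Per the submitters' processing notes, STAR 2.7.3a, Partek, DESeq2 and FastQC were used, with builds mm10 and GRCm39 and no role for either. Not given in the sources used here were the counting program, the annotation and any filter on low values. Per the file headers, the deposited gene table holds least-squares means of each group, taken here as a normalized signal, with a linear ratio, a log2 ratio, a p-value and a signed fold-change score for each comparison. The deposited log2 ratios were checked to be ratios of those means, and the adjusted p-values to follow from the p-values by the Benjamini-Hochberg step over 18783 genes. The authors' deposited read summary gives total reads per library with its group but not its sample, and the pathway table a p-value and ratio for each of 242 sets. The design had planned a count test per library if a table held counts. Only group means were used, so the authors' p-values stand in.

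The implied standard error is the log2 ratio's size over the normal deviate of its p. GC content was the median over a gene's GENCODE M21 principal transcripts, or over its other annotated transcripts where it had none (98.3% of genes matched, 46 of 46 members). The GC trend is a running median over 501 genes along GC content, set by 11660 genes whose Aβ mean reached 200. P-values after its removal keep the implied error and were adjusted over 18459 genes. The trend removal was also run on simulated ratios with a made-up GC trend and changed genes drawn without regard to GC content. Such a simulation cannot show whether a response that goes with GC content is removed. In the Aβ+DFMO column, 80.2% of 7242 genes below 27 reads' worth, and 36 of the 46 members, came out whole, to within 0.05 of a read, when divided by 7.45, taken as the worth of 1 read. No count test was run on these estimates. Poisson and Clopper-Pearson intervals cover counting error only.

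Named with values were all catalytic, inducible, activator, inhibitor and assembly genes, every called member, and the extremes of each other subcomplex. From each list, called genes were named, or the 2 with the smallest p. Psma8 and Psmb11 were not analysed here. A gene of the ubiquitin list is not reported here and is in neither the measured nor the listed count of that list. Python 3.11.15, numpy 2.4.6, scipy 1.17.1, pandas 2.3.3 and matplotlib 3.10.9 were used.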

Additional observations from a re-analysis of the deposited data

How the results depend on the processing

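The count of proteasome genes called in Aβ+DFMO against Aβ, 5 as deposited, was 2 at an adjusted p threshold of 0.01 and 10 at 0.1, where 5 genes were higher and 5 lower. It was 6 with genes restricted to a mean of at least 200, and 5 with ratios centred on the median of all genes. It was 0 with the GC trend taken out and 0 with GC and length trends taken out. None of the 46 was called in Aβ against Control under any of these settings. Over these settings, other pseudocounts (10 and 100) and equal sums over all genes, the members' median log2 ratio ran from −0.10 to −0.01 for Aβ+DFMO over Aβ and from 0.02 to 0.07 for Aβ over Control. For Aβ+DFMO over Control it ran from −0.07 to 0.03, and was below 0 only with the GC trend, or GC and length trends, taken out. For the counts of calls, the restriction to a mean of at least 200 left 43 genes for Aβ against Control and 40 for Aβ+DFMO against Aβ, and for the medians it left 42. Psmb8 was not among these 40, and Psma4 (adjusted p = 0.0388) and Psmg2 (adjusted p = 0.0479) then passed. No called gene turned its direction. No paired analysis was possible because each gene had only 1 mean for a group, and for the same reason leaving out each library was not run. Depth limits the genes with few reads in Aβ+DFMO, 6 of the 46 having fewer than 25.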

Other observations

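Near copies of proteasome genes stand outside the 46 members. Psmb6-ps2 was listed with means of 7.45 in Aβ+DFMO, 15.4 in Aβ and 12.8 in Control, and Psmb7-ps2 with 1.37 in Aβ+DFMO, 7.92 in Aβ and 2.93 in Control. Neither was called in the authors' deposited table.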
